A study of Homo sapiens with 8 samples.

Results

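The genes described here are 10 genes listed for the response to hypoxia-inducible factor 1 (HIF-1): ANKRD37, HIF1A, VEGFA, CA9, ADM, EGLN3, NDRG1, BNIP3, P4HA1 and ANGPTL4. HIF1A encodes a subunit of HIF-1 itself, and all 10 are called hypoxia-inducible genes here for short. They were chosen by name, and ANKRD37 was chosen by its large rise of enrichment in these same arrays, so its values are a description and carry no test. All probes that carry a RefSeq accession of these genes were taken, 12 in all, and probes named otherwise were not assigned to a gene. Every one of the 12 was well above background on all 8 arrays. All 10 genes thus belong to the 10956 genes measured on every array. The samples were A431 cells, a human cutaneous squamous cell carcinoma line, that received a negative control miRNA (miR-NC) or a miR-634 mimic at 10 nM and were lysed 24 h later. RNA bound by Argonaute 2 (AGO2), the protein that holds miRNAs on their target mRNAs, was pulled down with an anti-AGO2 antibody (RIP), and the input was RNA of the same cells. The 4 groups, namely the input and the RIP of miR-NC cells and the input and the RIP of miR-634-overexpressing cells, were each hybridized to 2 one-color Agilent arrays, all on 1 slide. The study's methods call the input total RNA, whereas normal rabbit IgG is the antibody named for these arrays in the labels, and neither says whether the 2 arrays of a group came from separate transfections, so p-values measure the spread between these arrays, which may be technical. The input arrays lay in one row of the slide and the RIP arrays in the other, and the miR-NC and miR-634 arrays in separate columns, so that slide position and group cannot be told apart.

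The share of spots well above background ran from 45.6% to 45.8% on the input arrays, was 33.6% and 34.5% for the RIP of miR-NC cells, and was 40.0% on both arrays of the miR-634 RIP. The cells carried the markers of their label: 8 of 8 squamous epithelial markers were measured on every array, against 0 of 5 fibroblast and 0 of 4 leukocyte markers, of which 3 in each list had a probe well above background on at least 1 array. A single line was used, so the values hold for A431 cells. Precision is limited throughout by the number of arrays.

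HIF-1 is a transcription factor made of an oxygen-regulated alpha subunit, encoded by HIF1A, and a constant beta subunit, ARNT. When oxygen is plentiful, prolyl hydroxylases of the EGLN family mark the alpha subunit, VHL binds it, and it is degraded; when oxygen is scarce, it accumulates and switches on genes for glycolysis, blood vessel growth, pH control and mitochondrial turnover. In squamous carcinoma, CA9, SLC2A1 and VEGFA are widely used signs of hypoxia. A miRNA works at a different step: loaded on AGO2, it pairs through its seed, bases 2 to 8, with mRNAs, which then become enriched in the RIP. The mature miR-634 given in RefSeq is shown because it is the agent that separates the groups, with its seed in capitals (T stands for U).
hsa-miR-634: aACCAGCAccccaactttggac
An mRNA that pairs with the whole seed holds TGCTGGT. Transcript sequences of these genes were not used here, so no target site is given.

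The promoters of the genes were searched for the core of the hypoxia response element, the site bound by HIF-1. RefSeq promoters (GRCh38.p14) were found for 8 of the 10 genes, with 2 start sites for HIF1A. In the 250 bases before the start site, the letters ACGTG on either strand were present in 5 of these 9 promoters, those of ANKRD37, ANGPTL4, BNIP3, CA9 and P4HA1, and in 18.5% of the 34788 promoters searched. GCGTG was present in 3 of the 9, those of ADM, BNIP3 and one HIF1A start site, and in 32.2% of all. The windows with ACGTG are shown because this core is what a HIF-1 target gene is known for. The core is in capitals, written as CACGT where it lies on the opposite strand. In ANKRD37 and BNIP3, a palindromic CACGTG reads as ACGTG on both strands.
ANKRD37, chr4:185396668-185396697, plus strand, core 161 bases before the start site: gcgccgggctccACGTGccagtgtttgtgt
ANKRD37, chr4:185396686-185396715, plus strand, core 143 bases before the start site: cagtgtttgtgtACGTGcggccgtggcggg
BNIP3, chr10:131982039-131982068, minus strand, core 133 bases before the start site: cgcacgcgccgcACGTGccacacgcacccc
CA9, chr9:35673898-35673927, plus strand, core 18 bases before the start site: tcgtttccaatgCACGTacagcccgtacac
P4HA1, chr10:73096935-73096964, minus strand, core 86 bases before the start site: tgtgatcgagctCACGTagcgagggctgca
ANGPTL4, chr19:8363909-8363938, plus strand, core 234 bases before the start site: ggaaagaagagtCACGTctcccacggttcg
A match is only a run of letters, and the arrays measured no binding of HIF-1 there. Whether this core goes with the response to miR-634 was not tested, and ANKRD37 was chosen for its own response.

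The following quantities describe each gene. A level is the log2 intensity of its brightest probe minus the array's 75th percentile, and levels are compared between arrays, never between genes. The enrichment is the RIP level minus the input level in one kind of cell. The fold change of enrichment is the enrichment in miR-634-overexpressing cells minus that in miR-NC cells, which equals the RIP change minus the input change, so these comparisons share arrays and do not support one another. Over all measured genes, the median was -0.22 on the log2 scale for the fold change of enrichment, -0.18 for the RIP change and -0.01 for the input change.

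ANKRD37, a small ankyrin repeat protein encoded by a direct HIF-1 target gene, moved from an enrichment above that of 20.2% of measured genes in miR-NC cells to one above 99.8% in miR-634-overexpressing cells. Its level (NM_181726) was -3.29 and -3.33 in the miR-NC input and -4.12 and -3.95 in the miR-NC RIP. In miR-634-overexpressing cells it was -4.00 and -4.01 in the input and -0.19 and -0.28 in the RIP. Both miR-634 RIP arrays thus stood far above the other 6 arrays, while the miR-634 input arrays lay below the miR-NC input arrays. On the linear scale, before any scaling between arrays, the intensity was 296.2 and 284.9 in the miR-NC input, 41.05 and 43.28 in the miR-NC RIP, 184.2 and 166.0 in the miR-634 input, and 1209 and 1096 in the miR-634 RIP. The dimmest of these was above 20.6 and 16.6, the lowest intensities called well above background on the miR-NC RIP arrays.

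The log2 enrichment of ANKRD37 was -0.72 ± 0.14 (SD, n = 2) under miR-NC and 3.77 ± 0.06 (SD, n = 2) under miR-634. Its fold change of enrichment was 22.6 (log2 4.50), rank 5 among all measured genes, with log2 values of 4.64 for arrays numbered 1 and 4.35 for arrays numbered 2. The RIP level was 14.0-fold higher (log2 3.80) and the input level 0.619-fold (log2 -0.69) in miR-634-overexpressing cells. The rise in the RIP therefore made up most of the change, and the lower input added the rest. Because ANKRD37 was picked for this pattern, the values stand without a test. In the bulk RNA of the input, fewer transcripts per cell and fewer cells that express the gene cannot be told apart.

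**Figure D1:**
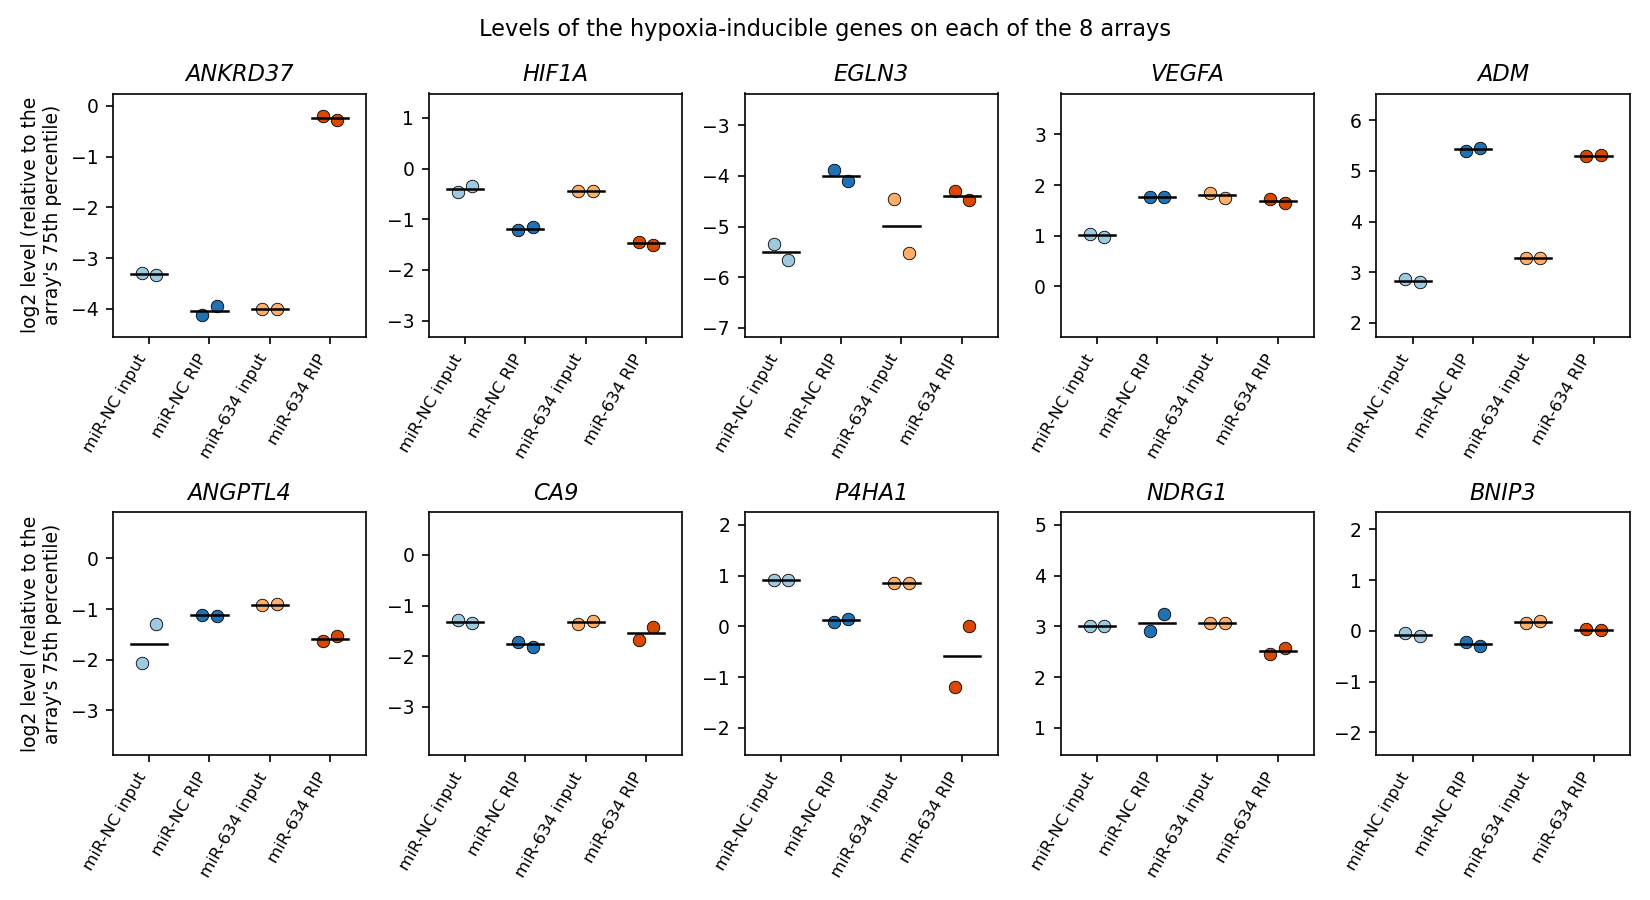
Log2 level of each hypoxia-inducible gene, relative to the array's 75th percentile, on the 8 arrays. Each point is 1 array, each bar the mean of the 2 arrays of a group, and all panels span the same number of log2 units. The miR-634 RIP arrays of ANKRD37 (-0.19 and -0.28) stand apart from its other arrays, ADM is higher in both RIP groups, and the 2 miR-634 RIP arrays of P4HA1 (-1.20 and 0.01) differ from each other.

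By the smallest root mean square difference over the 8 arrays, after centering each gene on its own mean, the genes most like ANKRD37 were DYNLT2B (difference 0.08 on the log2 scale), ATP5F1B (0.14), RGS14 (0.15), MAN1B1-DT (0.15) and ATP6V0B (0.18). For DYNLT2B the log2 enrichment was -0.71 ± 0.11 (SD, n = 2) under miR-NC and 3.72 ± 0.07 (SD, n = 2) under miR-634, close to the values of ANKRD37. In fold change of enrichment (log2), these genes ran from 4.02 for ATP5F1B to 5.18 for ATP6V0B, and their log2 input change from -0.94 for ATP6V0B to -0.50 for RGS14. The differences of the other 9 hypoxia-inducible genes from ANKRD37 ran from 1.50 for ADM to 2.11 for P4HA1, where the median of all other genes was 1.68. ANKRD37 was chosen as an extreme, so such distances are not particular to these 9 genes.

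None of the other 9 genes had a rise of enrichment near that of ANKRD37, which was chosen for its large rise. By limma, with p-values adjusted over all measured genes by the method of Benjamini and Hochberg, the fold change of enrichment was higher for 0 and lower for 5 of them, HIF1A, VEGFA, ADM, NDRG1 and ANGPTL4, and 4 did not pass, CA9, EGLN3, BNIP3 and P4HA1. Over all measured genes, 28.1% were called higher and 43.2% lower, so lower calls were common. These shares move with the scaling: 3077 genes were higher and 4729 lower, against 3278 and 3665 with the percentile over all probes and 7596 and 205 with scaling on spike-in probes. The median log2 fold change of the 9 genes was -0.61. Against the median gene, 2 of the 9 lay above it, CA9 by 0.44 and BNIP3 by 0.24, and HIF1A lay at it, with a difference of -0.03. ADM, NDRG1, P4HA1, VEGFA, EGLN3 and ANGPTL4 lay below by -0.36, -0.39, -0.44, -0.65, -0.68 and -1.02. The sign of these changes rests on the scaling: with each array scaled on its spike-in probes, the median gene stood at 0.87 instead of -0.22, 3 of the 9 genes (HIF1A, CA9 and BNIP3) were called higher, 0 lower, and only ANGPTL4 kept a value below 0. With the changes centered on the median gene, 3 stayed lower (VEGFA, ADM and ANGPTL4), and CA9 and BNIP3 were called higher.

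**Figure D2:**
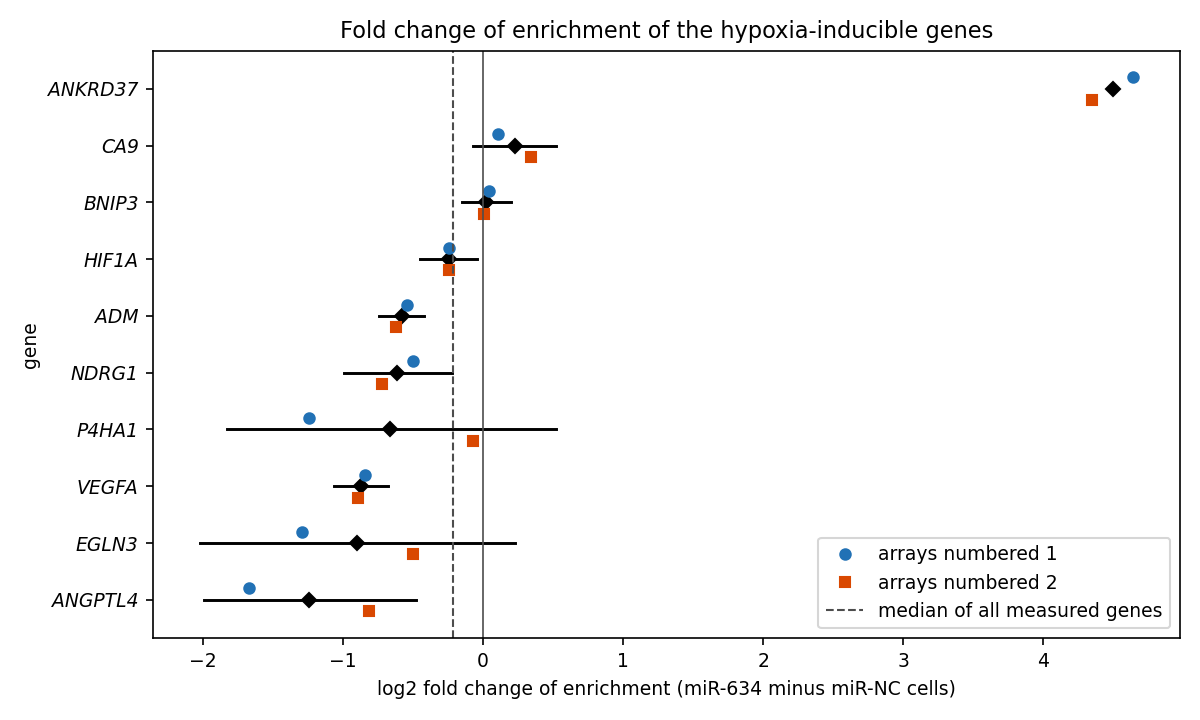
Log2 fold change of enrichment of each hypoxia-inducible gene, ordered by value. Diamonds are the mean, circles and squares the arrays numbered 1 and 2, black lines the 95% interval by limma (none for ANKRD37, which was chosen by this value), and the dashed line the median of all measured genes at -0.22. ANKRD37 lies at 4.50 and the other 9 genes between -1.24 and 0.23; scaling on spike-in probes moves all but ANGPTL4 above 0.

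HIF1A encodes the alpha subunit itself and is regulated mainly at the protein level. Its main probe (NM_181054, 10 spots) gave levels of -0.47 and -0.34 in the miR-NC input, -1.22 and -1.16 in the miR-NC RIP, -0.45 and -0.44 in the miR-634 input, and -1.44 and -1.50 in the miR-634 RIP. Both kinds of cells had HIF1A below its input in the RIP, and the miR-634 RIP arrays lay lowest of all 8. The log2 enrichment was -0.78 ± 0.05 (SD, n = 2) under miR-NC and -1.03 ± 0.05 (SD, n = 2) under miR-634. Its fold change of enrichment was 0.846 (log2 -0.24, standard error, SE, 0.08, adjusted p = 0.0392 by limma). This call was lost in 15 of 21 alternatives, for example at -0.12 with the percentile over all probes, and without any 1 of 5 of the 8 arrays. With scaling on spike-in probes the log2 fold change of enrichment was called higher instead, at 0.84. The input did not pass (log2 -0.04, 95% interval -0.18 to 0.11, adjusted p = 0.684 by limma), and the RIP change was -0.28 (adjusted p = 0.00473 by limma), where that of the median gene was -0.18. A dimmer HIF1A probe for the same accession gave a log2 fold change of enrichment of -0.34 with a wider interval (-1.06 to 0.38, adjusted p = 0.344 by limma over the 16808 probes).

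EGLN3 encodes a prolyl hydroxylase that marks the alpha subunit and is itself induced by hypoxia. Its levels (NM_022073) were -5.34 and -5.66 in the miR-NC input, -3.89 and -4.11 in the miR-NC RIP, -4.45 and -5.53 in the miR-634 input, and -4.30 and -4.48 in the miR-634 RIP. The 2 miR-634 input arrays differed from each other by more than the RIP groups did, with an SD of 0.77. EGLN3 was higher in the RIP than in the input of miR-NC cells, with a log2 enrichment of 1.50 ± 0.07 (SD, n = 2, adjusted p = 0.00519 by limma), or 0.60 with normexp and quantile normalization. The standard error of this enrichment by limma, which does not use the array numbers, was larger, at 0.33. In miR-634-overexpressing cells it was 0.60 ± 0.63 (SD, n = 2, adjusted p = 0.131 by limma). Its log2 fold change of enrichment, -0.90, did not pass (95% interval -2.02 to 0.23, adjusted p = 0.126 by limma), but it was called at -1.44 without the miR-634 input array numbered 2 and was -0.36 without that numbered 1.

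VEGFA, ADM and ANGPTL4 encode secreted factors: VEGFA drives the growth of blood vessels, ADM (adrenomedullin) is a vasodilator peptide, and ANGPTL4 inhibits lipoprotein lipase. In all of them the input rose in miR-634-overexpressing cells while the fold change of enrichment fell. The level of VEGFA (brighter probe, NM_001025370) was 1.04 and 0.97 in the miR-NC input and 1.84 and 1.75 in the miR-634 input. In the RIP it was 1.76 on each miR-NC array and 1.72 and 1.65 on the miR-634 arrays. The input arrays of the 2 kinds of cells did not overlap, whereas the RIP arrays were close together. The input was 1.73-fold higher (log2 0.79, standard error 0.06, adjusted p = 0.00062 by limma), a larger rise than in 99.7% of measured genes. The RIP change of -0.08 did not pass (95% interval -0.21 to 0.06, adjusted p = 0.253 by limma), and the log2 fold change of enrichment was -0.87 (SE 0.08, adjusted p = 0.000118 by limma).

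The VEGFA probes disagreed on the enrichment in miR-NC cells. The brighter one gave 0.76 ± 0.05 (SD, n = 2), above its input, and the dimmer one (NM_001025366) gave -0.24 ± 0.06 (SD, n = 2), below it. Both were called by limma over all probes, in opposite directions (adjusted p = 4e-05 and 0.0221). The dimmer probe had levels of -0.50 and -0.53 in the miR-NC input, -0.69 and -0.81 in the miR-NC RIP, 0.20 and 0.05 in the miR-634 input and -0.47 and -0.53 in the miR-634 RIP. On the changes with miR-634 the probes ran the same way for the input and the enrichment: the dimmer probe gave a log2 input change of 0.64 (adjusted p = 0.00344 by limma) and a log2 fold change of enrichment of -0.39 (adjusted p = 0.014 by limma). Its RIP change was 0.25 (adjusted p = 0.0187 by limma), where that of the brighter probe did not pass.

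ADM (NM_001124, 10 spots) was the gene most enriched on AGO2 in miR-NC cells among the 10. Its level was 2.87 and 2.80 in the miR-NC input, 5.40 and 5.45 in the miR-NC RIP, 3.29 and 3.28 in the miR-634 input, and 5.29 and 5.31 in the miR-634 RIP. The RIP arrays of both kinds of cells lay above every input array. In log2 terms, the enrichment was 2.59 ± 0.08 (SD, n = 2) in miR-NC cells, a 6.01-fold enrichment that exceeded that of 99.0% of measured genes, and 2.01 ± 0.02 (SD, n = 2) in miR-634-overexpressing cells. With scaling on spike-in probes these log2 enrichments were 0.12 (adjusted p = 0.519 by limma, the call lost) and 0.62. The input was 1.37-fold higher with miR-634 (log2 0.45, standard error 0.05, adjusted p = 0.00179 by limma). Its fold change of enrichment was 0.669 (log2 -0.58, SE 0.07, adjusted p = 0.000309 by limma). The RIP change was -0.13 (adjusted p = 0.0409 by limma), but this call was lost in 14 of 20 alternatives. The value turned to 0.045 with the percentile over all probes, where it did not pass. The RIP level was called higher instead at 0.19 with quantile normalization and at 0.17 with normexp and quantile normalization. With scaling on spike-in probes it was called higher at 0.78.

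ANGPTL4 (NM_139314) had levels of -2.07 and -1.30 in the miR-NC input, -1.11 and -1.14 in the miR-NC RIP, -0.92 and -0.90 in the miR-634 input, and -1.62 and -1.54 in the miR-634 RIP. The miR-NC input arrays differed from each other (SD 0.54), but both lay below the miR-634 input arrays, and the RIP arrays did not overlap either, in the opposite order. The log2 enrichment was 0.56 ± 0.57 (SD, n = 2) under miR-NC and -0.67 ± 0.04 (SD, n = 2) under miR-634. Its fold change of enrichment was 0.424 (log2 -1.24, SE 0.31, adjusted p = 0.0112 by limma). It was -0.85 without the miR-NC input array numbered 1 and -1.62 without that numbered 2, and was called in each case. The log2 input change of 0.78 (adjusted p = 0.0481 by limma) was likewise 0.40 and 1.16 without these arrays and lost its call in 10 of 20 alternatives, and the RIP change of -0.46 did not pass (adjusted p = 0.0986 by limma).

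CA9 and P4HA1 encode enzymes: carbonic anhydrase IX acidifies the outside of hypoxic cells, and P4HA1 is a catalytic subunit of the prolyl hydroxylase that matures collagen. CA9 (NM_001216) had levels of -1.29 and -1.34 in the miR-NC input, -1.71 and -1.82 in the miR-NC RIP, -1.36 and -1.30 in the miR-634 input and -1.67 and -1.43 in the miR-634 RIP. Its RIP arrays lay below its input arrays in both kinds of cells, and neither the input nor the enrichment passed the test of a change. The log2 fold change of enrichment was 0.23 (95% interval -0.07 to 0.52, adjusted p = 0.135 by limma), but it was called at 0.35 with the percentile over all probes and without the miR-634 RIP array numbered 1. The input change was -0.02 (95% interval -0.22 to 0.19, adjusted p = 0.922 by limma).

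P4HA1 (NM_001142595) had levels of 0.91 on each miR-NC input array, 0.09 and 0.15 in the miR-NC RIP, 0.85 on each miR-634 input array, and -1.20 and 0.01 in the miR-634 RIP. Only the miR-634 RIP arrays disagreed (SD 0.86). The log2 fold change of enrichment of -0.66 did not pass (95% interval -1.83 to 0.52, adjusted p = 0.264 by limma). It was -0.05 without the miR-634 RIP array numbered 1 and -1.27, then called, without that numbered 2. P4HA1 was thus below its input in the RIP of miR-634-overexpressing cells (log2 enrichment -1.45 ± 0.87, SD, n = 2), by an amount these 2 arrays do not fix.

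NDRG1 and BNIP3 encode intracellular proteins of the stress response, NDRG1 a differentiation-associated protein and BNIP3 a mitochondrial protein that promotes mitophagy. NDRG1 (NM_006096) had levels of 3.01 on each miR-NC input array, 2.90 and 3.25 in the miR-NC RIP, 3.07 and 3.06 in the miR-634 input, and 2.46 and 2.58 in the miR-634 RIP. The miR-634 RIP arrays lay below all others while the input arrays were nearly identical. The log2 fold change of enrichment was -0.61 (SE 0.16, adjusted p = 0.0129 by limma), made up of a RIP change of -0.56 (adjusted p = 0.00365 by limma) and an input change of 0.05 that did not pass (adjusted p = 0.777 by limma). The enrichment call was lost in 5 of 21 alternatives, among them at -0.49 with the percentile over all probes and at 0.47 with scaling on spike-in probes.

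BNIP3 (NM_004052) had levels of -0.04 and -0.11 in the miR-NC input, -0.21 and -0.30 in the miR-NC RIP, 0.16 and 0.19 in the miR-634 input, and 0.03 and 0.02 in the miR-634 RIP. Input and RIP both rose, by 0.25 (adjusted p = 0.0185 by limma) and 0.27 (adjusted p = 0.00276 by limma) on the log2 scale. The fold change of enrichment therefore stayed near 1 (log2 0.02, 95% interval -0.15 to 0.20, adjusted p = 0.778 by limma). The input call was lost when any 1 of the 4 input arrays was left out, with values from 0.22 to 0.28.

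In the input, 4 of the 9 genes other than ANKRD37 were called higher with miR-634, VEGFA, ADM, ANGPTL4 and BNIP3, and 0 lower, where limma called 11.6% of all measured genes higher and 12.1% lower (1273 and 1326 genes, against 1070 and 659 with the percentile over all probes and 64 and 790 with scaling on spike-in probes). Their median log2 input change was 0.25. In the RIP, 1 of the 9 was called higher, BNIP3, and 3 lower, HIF1A, ADM and NDRG1, with 30.9% of all measured genes higher and 46.5% lower (3383 and 5097 genes, against 4047 and 3713 with the percentile over all probes and 7827 and 357 with scaling on spike-in probes) and a median over the 9 genes of -0.28. Of the genes called lower in enrichment, the input was called higher for VEGFA, ADM and ANGPTL4 and did not pass for HIF1A and NDRG1. The RIP level was called lower for ADM, HIF1A and NDRG1, and the RIP change of ANGPTL4 (-0.46) did not pass. These divisions rest on the cutoff: the RIP call was lost in 3 of 20 alternatives for HIF1A and in 14 for ADM. They also rest on the scaling: both genes were called higher in the RIP with scaling on spike-in probes, and ADM with either quantile normalization. The input call of ANGPTL4 was lost in 10 of 20. The plot of input change against RIP change shows the values. For ANKRD37 the input was lower and the RIP level higher. Its choice by a large rise of enrichment favors this pattern, so it is no contrast with the other genes.

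**Figure D3:**
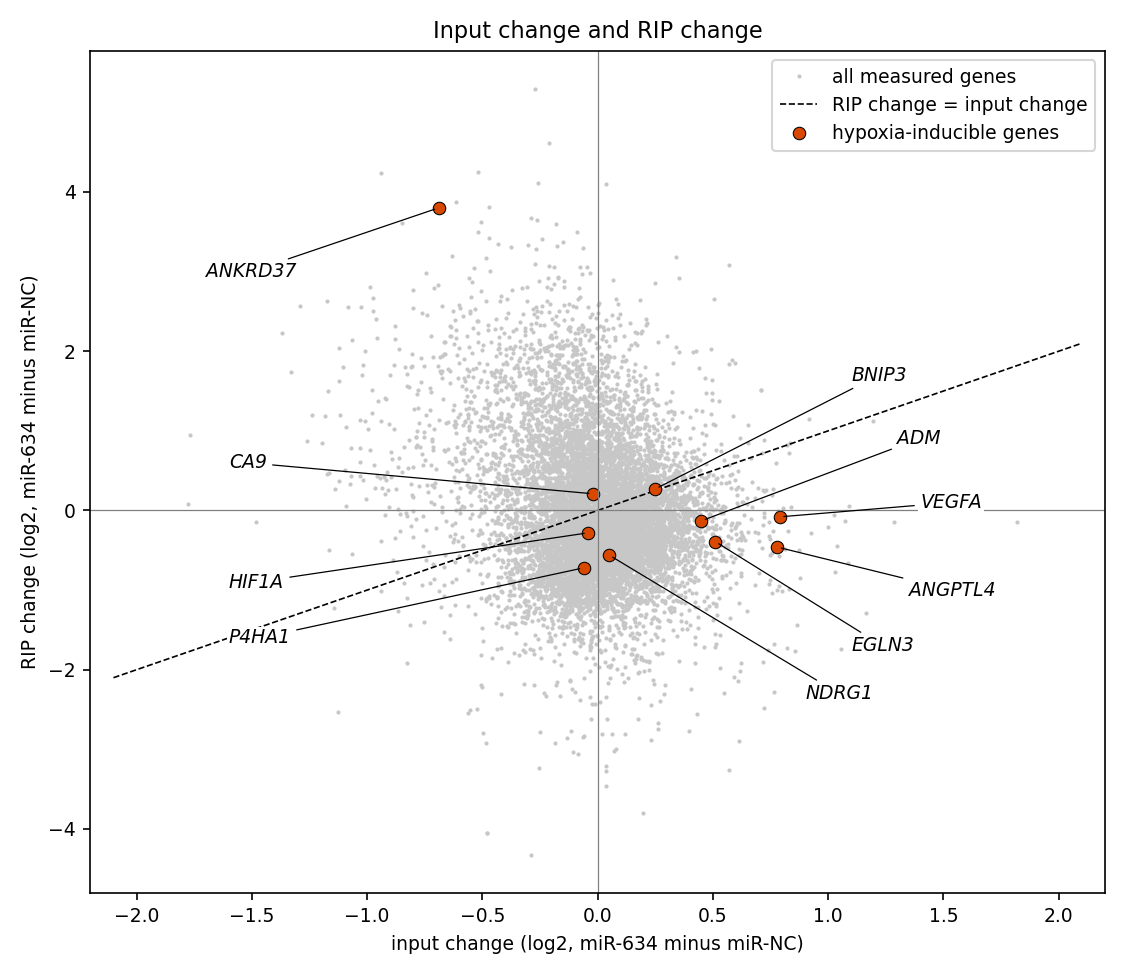
Input change (horizontal) and RIP change (vertical), both log2, miR-634 minus miR-NC, for the 10956 measured genes (gray) and the 10 hypoxia-inducible genes (orange). The dashed line marks equal changes, where the fold change of enrichment is 1. VEGFA, ANGPTL4, EGLN3 and ADM lie to the right, with log2 input changes from 0.45 to 0.79 (that of EGLN3 did not pass), and ANKRD37 lies at -0.69 and 3.80; scaling on spike-in probes moves the RIP changes of all 9 other genes above 0.

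Within miR-NC cells, 3 of the 9 genes were higher in the RIP than in the input, VEGFA, ADM and EGLN3, and 3 were lower, HIF1A, CA9 and BNIP3, where 33.5% and 45.3% of all measured genes were. Within miR-634-overexpressing cells, 1 was higher, ADM, and 6 were lower, HIF1A, CA9, NDRG1, BNIP3, P4HA1 and ANGPTL4, where 36.1% and 48.3% of all measured genes were. Of these 6, CA9 (log2 -0.22, adjusted p = 0.0459 by limma) lost its call in 14 of 20 alternatives, BNIP3 (-0.15) in 10 and ANGPTL4 (-0.67) in 7. The call of BNIP3 in miR-NC cells was lost in 4. The 9 genes had a median enrichment of 0.06 under miR-NC and -0.22 under miR-634, against -0.12 and -0.17 over all measured genes. VEGFA, at 0.76 in miR-NC cells, was at -0.11 ± 0.02 (SD, n = 2) with miR-634, a difference from its input that did not pass (adjusted p = 0.107 by limma). On the spike-in scale, where the median enrichment in miR-NC cells was -2.59, VEGFA and EGLN3 lay below 0 as well, and 70 genes were called higher and 10726 lower. In miR-634-overexpressing cells the counts on that scale were 799 and 9108.

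Other genes of the pathway were taken from lists of its known parts and targets. Of 15 genes of the HIF machinery, 12 were measured, and by limma 3 were higher in fold change of enrichment and 4 lower, where 28.1% and 43.2% of all measured genes were. EPAS1, the alpha subunit of HIF-2, had the largest rise, 3.27-fold (log2 1.71, standard error 0.07, adjusted p = 3.34e-06), with a lower input (log2 -0.79, adjusted p = 0.000421 by limma) and a higher RIP level (log2 0.93). RBX1, the RING subunit of the ligase that carries VHL, rose 2.87-fold, and CREBBP, a coactivator of HIF, 1.59-fold. Of the lower ones, ELOC and ELOB are the elongin subunits that join VHL to the ligase, with log2 fold changes of enrichment of -1.23 and -0.56. CITED2, which competes with HIF for CREBBP, was at -0.98, and VHL itself at -0.29. With scaling on spike-in probes CITED2, ELOB and VHL stood above 0, at 0.10, 0.53 and 0.79. Of these, VHL was then called higher, which reverses its call. The calls of VHL and ELOB were each lost in 3 of 21 alternatives, that of VHL with the percentile over all probes among them. In the input, EPAS1 and CITED2 were lower and 0 higher, and the call of CITED2 (log2 -0.18) was lost in 17 of 20 alternatives. The median log2 fold change of enrichment over the list was -0.02, against -0.22 for all measured genes.

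Of 44 further HIF target genes, 36 were measured, and 18 were higher and 10 lower in fold change of enrichment, against 28.1% and 43.2% of all measured genes, with a median log2 value of 0.16. The number of this HIF target list called higher in fold change of enrichment was 22 after centering and 33 with scaling on spike-in probes. The number lower was 6 with the percentile over all probes, 5 after centering or with the authors' processed values, and 1 with scaling on spike-in probes. TMEM45A, a transmembrane protein gene, had the largest rise, 8.69-fold (log2 3.12, standard error 0.07, adjusted p = 6.56e-07 by limma). Its log2 enrichment went from -0.77 ± 0.04 (SD, n = 2) in miR-NC cells to 2.35 ± 0.04 (SD, n = 2) with miR-634. SLC2A1, the glucose transporter GLUT1, rose 3.47-fold, AK4, a mitochondrial adenylate kinase, 2.90-fold, and LDHA, lactate dehydrogenase A, 2.56-fold. P4HA2, a paralog of P4HA1, rose 3.22-fold (log2 1.69, standard error 0.06, adjusted p = 3.04e-06 by limma), where P4HA1 had not passed; the difference between the paralogs was not tested.

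WSB1, a substrate receptor of a ubiquitin ligase, had the largest fall, with a log2 fold change of enrichment of -2.62 (SE 0.13, adjusted p = 9.2e-06 by limma). Its log2 enrichment was 1.95 ± 0.01 (SD, n = 2) under miR-NC and -0.67 ± 0.24 (SD, n = 2) under miR-634, while its input rose by 0.86 on the log2 scale. KDM4B, a histone demethylase, SLC16A3, the lactate exporter MCT4, ZNF395, and BNIP3L, the paralog of BNIP3 in mitophagy, followed at -0.93, -0.84, -0.50 and -0.48. These values stood above 0 with scaling on spike-in probes, where ZNF395 and BNIP3L were called higher and KDM4B and SLC16A3 did not pass. In the input, 6 of the 36 genes were higher and 6 lower, against 11.6% and 12.1% of all measured genes. The largest rises besides WSB1 were those of STC2 (log2 0.71) and HK2 (0.44), and the largest falls those of AK4 (-0.97), NARF (-0.43) and MXI1 (-0.37). The call of MXI1 was lost in 12 of 20 alternatives, and AK4 combined a lower input with a RIP level higher by 0.57.

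**Figure D4:**
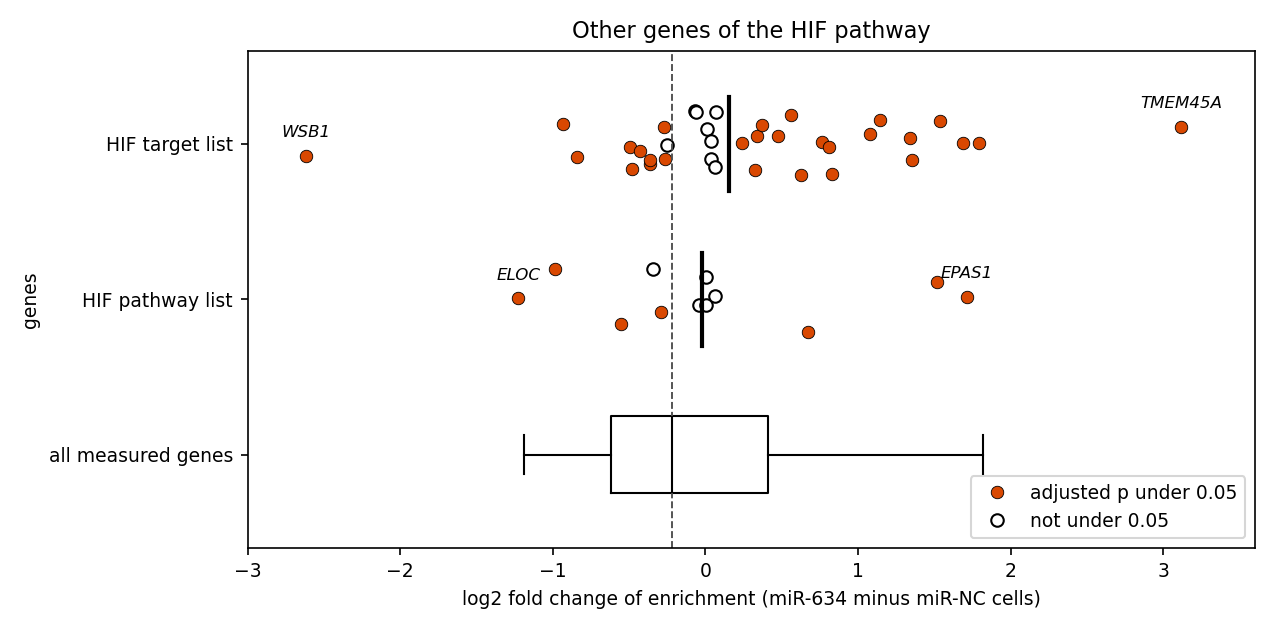
Log2 fold change of enrichment of the measured genes of the HIF target list (36) and the HIF pathway list (12), with the box of all measured genes below (quartiles, whiskers at the 5th and 95th percentiles). Filled points had an adjusted p under 0.05 by limma, short bars are the list medians (0.16 and -0.02), and the dashed line is the median of all measured genes (-0.22). The lists spread to both sides, from WSB1 at -2.62 to TMEM45A at 3.12; vertical scatter within a list has no meaning, and scaling on spike-in probes shifts every point upward.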

How the data were processed

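The authors deposited, for each of the 8 arrays, spot intensity values from Agilent Feature Extraction (9.1 per the submitters' processing notes, a later release per the file headers), background-corrected within each array but not normalized between them. Their own processed log2 values, likewise deposited, matched log2 intensity minus each array's 75th percentile of all probes after centering each probe, and served here as an alternative. Its medians per array ran from -0.44 to 0.87.

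Here, control and outlier spots were left out, spots of a probe were averaged, and no spot was saturated. Only 28.9% of the 58201 probes passed as well above background on every array, so the 75th percentile was taken over these 16808. The design was annotated on hg19. Symbols came from the RefSeq table of GRCh38.p14, which gave a symbol to 31038 of the 31770 probes that carry a RefSeq accession, and the brightest passing probe stood for a gene. Changes were tested with limma 3.58.1 in R 4.3.3 on the 4 group means, at an adjusted p of 0.05 (Benjamini-Hochberg, 10956 genes). Since all arrays shared 1 slide and 1 scan, no slide block was fitted.

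The members and the lists were chosen with earlier results of these data known. Named genes were all members, up to 5 rises and 5 falls of enrichment and up to 3 of input, by size, in each list (called, with 1 direction in both array numbers), and the 5 genes most like ANKRD37. Of these steps, only the limma fit of the fold change of enrichment was tried on simulated data. Alternatives were other scalings (percentile over all probes, median, quantile, normexp with an offset of 50 on the median signal, and the 10 spike-in probes), centering on the median gene, the authors' values, other filters, averaging of probes, a replicate block, a variance trend on intensity, the omission of each array, and the methods' t-test. Python 3.11.15 with pandas 2.3.3 and matplotlib 3.10.9 served for the tables and plots.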

Additional observations from a re-analysis of the deposited data

Results flagged for a closer look

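The difference of the enrichment between the kinds of cells, itself the tested quantity, passed limma's threshold for 5 of the 9 genes other than ANKRD37. The log2 fold change of enrichment was -0.24 for HIF1A, -0.87 for VEGFA, -0.58 for ADM, -0.61 for NDRG1 and -1.24 for ANGPTL4. For ANKRD37, at 4.50, the RIP level lay below the input in both array pairs of miR-NC cells and above it in both of miR-634-overexpressing cells; this difference was not tested, because the gene was chosen by it.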

How the results depend on the processing

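The fold change of enrichment of ANKRD37 (log2 4.50) ran from 3.65 with normexp and quantile normalization to 5.58 with scaling on spike-in probes, was 4.71 centered on the median gene, and ran from 4.41 to 4.58 with 1 array left out. Of the other 9 genes, between 4 and 5 were called lower in enrichment with 1 array left out and 0 to 1 higher. In the input, 2 to 3 were then called higher. In the RIP, 1 to 2 were higher and 2 to 3 lower. The number called lower in enrichment was 3 with the percentile over all probes, with the authors' processed values and after centering, and 2 (VEGFA and ADM) by the methods' t-test after Benjamini-Hochberg adjustment, or 3 with HIF1A at the methods' threshold before it. The number called higher in enrichment was 1 with the percentile over all probes, the authors' values or normexp, and 2 after centering. In the RIP, 2 were called higher with the percentile over all probes, median scaling, centering, the authors' values or an intensity trend, and 3 with either quantile normalization. The number called lower in the RIP was 1 with the percentile over all probes, centering or the authors' values. Without a filter on dim probes, 2 genes were called higher in the input.

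Scaling on the spike-in probes gave counts of 3 higher and 0 lower in enrichment, 2 higher in the input, and 7 higher and 0 lower in the RIP. It raises the fold change of enrichment of every gene by the same amount, and turned that of HIF1A to 0.84, VEGFA to 0.21, ADM to 0.50, EGLN3 to 0.18, NDRG1 to 0.47 and P4HA1 to 0.43. The dimmer probes turned to 0.69 (VEGFA) and 0.74 (HIF1A). CITED2 turned to 0.10, ELOB to 0.53, VHL to 0.79, KDM4B to 0.15, SLC16A3 to 0.24, ZNF395 to 0.59 and BNIP3L to 0.60. The RIP change turned to 0.63 for HIF1A (0.37 by its dimmer probe), 0.83 for VEGFA, 0.78 for ADM, 0.52 for EGLN3, 0.35 for NDRG1, 0.19 for P4HA1 and 0.45 for ANGPTL4, and the input change of NDRG1 to -0.12. On this scale the enrichment in miR-NC cells was -1.71 for VEGFA, -0.97 for EGLN3, -2.41 for NDRG1 and -1.90 for ANGPTL4, and that of EGLN3 in the other cells was -0.79.

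Small values also changed sign. The input change of HIF1A was 0.017 and that of CA9 0.041 with the percentile over all probes, and 0.017 and 0.040 with the authors' values. The RIP change of VEGFA was 0.10 with either of these and after centering, and 0.086 when probes were averaged. The RIP change of ADM was 0.045 with each of these, 0.051 after centering, 0.19 with quantile normalization and 0.17 with normexp. After centering, the enrichment in miR-634-overexpressing cells was 0.062 for VEGFA and 0.019 for BNIP3. The dimmer HIF1A probe had a fold change of enrichment of 0.049 with normexp. With 1 array left out, the fold change of enrichment of BNIP3 ran from -0.021 to 0.070, the input changes of HIF1A, CA9 and EGLN3 from -0.11 to 0.029, -0.045 to 0.015 and -0.033 to 1.05, and the enrichment of NDRG1 in miR-NC cells reached -0.11. The causes were not tested.

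Whether the array numbers pair the samples was not settled. The deviations of same-numbered arrays had correlations from -0.04 to 0.08 between groups. The 2 largest were those of input and RIP of the same cells, 0.07 in miR-NC and 0.08 in miR-634-overexpressing cells. Low correlations after scaling of each array cannot exclude that same-numbered arrays share a sample. With a replicate block the fold change of enrichment of ANGPTL4 was still -1.24 and the same 5 genes were called lower, while the input change of ANGPTL4 (0.78), the RIP change of ADM (-0.13) and the enrichment of CA9 in miR-634-overexpressing cells (-0.22) were no longer called, nor were the input changes of CITED2 (-0.18) and MXI1 (-0.37), and the enrichment of ANGPTL4 in miR-NC cells (0.56) was called. With 2 arrays a group, no call rests on more than 4 residual degrees of freedom and the pooled variance, and dim probes such as that of EGLN3 limit what can be told.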
